A study of Mus musculus with 12 samples.

Results

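Collagen chain genes were followed through 3 successive zones of the embryonic mouse tibia. A gene was taken where a probe set carried 1 symbol of the form Col, number, a, number, and where its mean signal was 50 or more in at least 1 zone. Each gene was represented by the probe set with the highest mean log2 signal over the 12 arrays. By this rule 35 of 42 collagen genes with such a probe set were members, among 11847 genes that passed the same filter. They comprised 11 fibrillar, 3 network-forming, 7 FACIT (fibril-associated), 5 basement membrane and 9 other chains. The 7 genes under the filter were Col4a4, Col6a5, Col7a1, Col17a1, Col19a1, Col20a1 and Col23a1. The highest zone means just inside the filter were 66.9 for Col6a4 and 73.1 for Col4a6, and just outside it 46.9 for Col20a1 and 45.8 for Col23a1. A mean of 50 or more was reached in every zone by 28 members, in 2 zones by 5 and in 1 zone alone by 2.

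The samples were tibiae of CD1 mice at embryonic day 15.5, an outbred stock with no genetic change or treatment in any group. Zone I, the outer segment, holds resting and proliferating chondrocytes, zone II holds prehypertrophic and hypertrophic chondrocytes, and zone III is the central segment with the most mature hypertrophic chondrocytes and mineralised tissue. Segments were cut by hand and pooled within a litter, and 4 litters gave 4 arrays per zone (A to D). Whether 1 letter marks 1 litter in all zones was not given in the sources used here. Signals are linear intensities of Affymetrix MOE 430 2.0 arrays, scaled by the authors to a common trimmed mean.

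Collagens are secreted as trimers of alpha chains, each chain from its own gene. Fibrillar collagens assemble into banded fibrils, type II with type XI in cartilage and type I with type V in bone and fibrous tissue. FACIT collagens sit on fibril surfaces, type X forms a network around hypertrophic chondrocytes, and type IV forms the sheet of basement membranes, such as those beneath endothelium.

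Marker genes placed the zones as labelled, with other cells present. Summed signals of 9 chondrocyte markers ranged from 16637 to 19698 in zone I, 23661 to 26485 in zone II and 6114 to 7921 in zone III. The 4 hypertrophic markers summed to 453.7 to 629 in zone I, 7904 to 10012 in zone II and 6983 to 7890.4 in zone III. Endothelial, macrophage, osteoclast and osteoblast lists all summed highest in zone III, and the 9 perichondrium, tendon and fibrous tissue markers summed highest in zone I. Array A of zone II stood apart, with an erythroid sum of 3174 against at most 443 on the other zone II arrays, an osteoclast sum of 1559.8 against at most 812 and an endothelial sum of 521 against at most 324. Collagen gene differences whose call changed without this array are given with and without it. In such mixed tissue, fewer cells of a type and less RNA per cell cannot be told apart. The 3′ to 5′ signal ratio of Gapdh was 1.98 to 2.28 in zone III and 1.25 to 1.76 in the other zones, whereas that of actin was 1.70 to 2.02 in zone III and 2.09 to 3.23 in the other zones. The part of both in the results was not tested.

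RefSeq promoter windows, 250 bases before to 50 after the gene start (GRCm38.p6), were at hand for 26 of the 35 members. Col1a1, Col2a1, Col4a3, Col5a2, Col9a3, Col12a1, Col14a1, Col22a1 and Col26a1 had no window and were not searched for motifs. A set of 3 is shown, since by their brightest probe sets Col4a1 and Col4a2 moved together in every comparison and Col10a1 had the largest difference of all members. The dimmer Col4a1 probe set moved less, by -0.99 for zone II minus zone I, 1.42 for zone III minus zone II and 0.43 for zone III minus zone I. Col4a1 and Col4a2 encode the chains of the common basement membrane trimer and start head to head. On chromosome 8 their starts lie 21 bases apart on opposite strands, so that the windows share 78 bases. Capitals mark matches on either strand to CCAAT, the GC box GGGCGG or the TATA box TATAAA. The Col4a1 window is chr8:11312777-11313076 on the minus strand, the Col4a2 window chr8:11312555-11312854 on the plus strand and the Col10a1 window chr10:34389731-34390030 on the plus strand.
Col4a1: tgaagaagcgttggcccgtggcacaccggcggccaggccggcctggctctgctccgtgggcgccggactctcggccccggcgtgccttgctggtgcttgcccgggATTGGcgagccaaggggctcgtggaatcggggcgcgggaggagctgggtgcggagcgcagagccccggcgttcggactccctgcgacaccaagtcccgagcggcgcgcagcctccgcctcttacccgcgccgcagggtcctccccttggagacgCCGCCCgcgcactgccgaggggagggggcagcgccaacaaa
Col4a2: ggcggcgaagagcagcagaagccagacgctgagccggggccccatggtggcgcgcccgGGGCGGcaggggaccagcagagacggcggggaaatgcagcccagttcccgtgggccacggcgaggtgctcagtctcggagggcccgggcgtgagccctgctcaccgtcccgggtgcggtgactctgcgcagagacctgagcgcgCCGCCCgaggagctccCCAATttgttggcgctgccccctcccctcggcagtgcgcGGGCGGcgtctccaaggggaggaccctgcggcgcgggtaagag
Col10a1: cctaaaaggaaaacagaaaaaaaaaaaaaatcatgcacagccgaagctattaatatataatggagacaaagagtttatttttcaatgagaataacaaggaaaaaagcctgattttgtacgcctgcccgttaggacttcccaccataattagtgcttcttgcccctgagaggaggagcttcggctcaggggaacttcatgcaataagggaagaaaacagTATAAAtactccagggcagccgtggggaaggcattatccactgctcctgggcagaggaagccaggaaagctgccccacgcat
The GC box was found in 18 of the 26 windows and in 35.7% of all 32851 promoter windows, and CCAAT in 11 of 26 and in 37.4%. TATAAA was found for 4 members (Col3a1, Col10a1, Col11a2 and Col13a1) and in 13.6% of all windows. Of 2 further motifs, AACAAT, recognised by Sox factors, was found for Col3a1 alone among the 26 (10.7% of all windows), and TGTGGT, recognised by Runx factors, for Col8a1 and Col18a1 (16.8% of all windows). A match describes these letters and not a bound site.

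Most collagen chains that changed at the step into zone II fell, and most that changed at the step into zone III rose. Between zones I and II, 5 members were higher in zone II and 17 lower at an adjusted p under 0.05, and 13 did not pass. Over all 11847 genes, 16% were called higher and 25.4% lower in this comparison. Between zones II and III, 17 members were higher in zone III, against 31.0% of all genes, 8 were lower, against 22.7%, and 10 did not pass. Between zones I and III, 10 members were higher in zone III, against 21.7% of all genes, 15 were lower, against 21.7%, and 10 did not pass. The median log2 difference of the members was -0.76 for zone II minus zone I, 0.38 for zone III minus zone II and -0.38 for zone III minus zone I, beside -0.09, 0.09 and -0.01 over all genes. The arrays had been hybridised in 3 runs that each held every zone, and the 22, 25 and 25 called members had the same sign within each of the 3 runs. The runs are parts of the arrays that gave the calls, so this agreement is no separate support. Without array A of zone II, 19 members were lower in zone II than in zone I, and the matching share of all genes is not given here. The 3 comparisons share zones and are not independent.

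**Figure D1:**
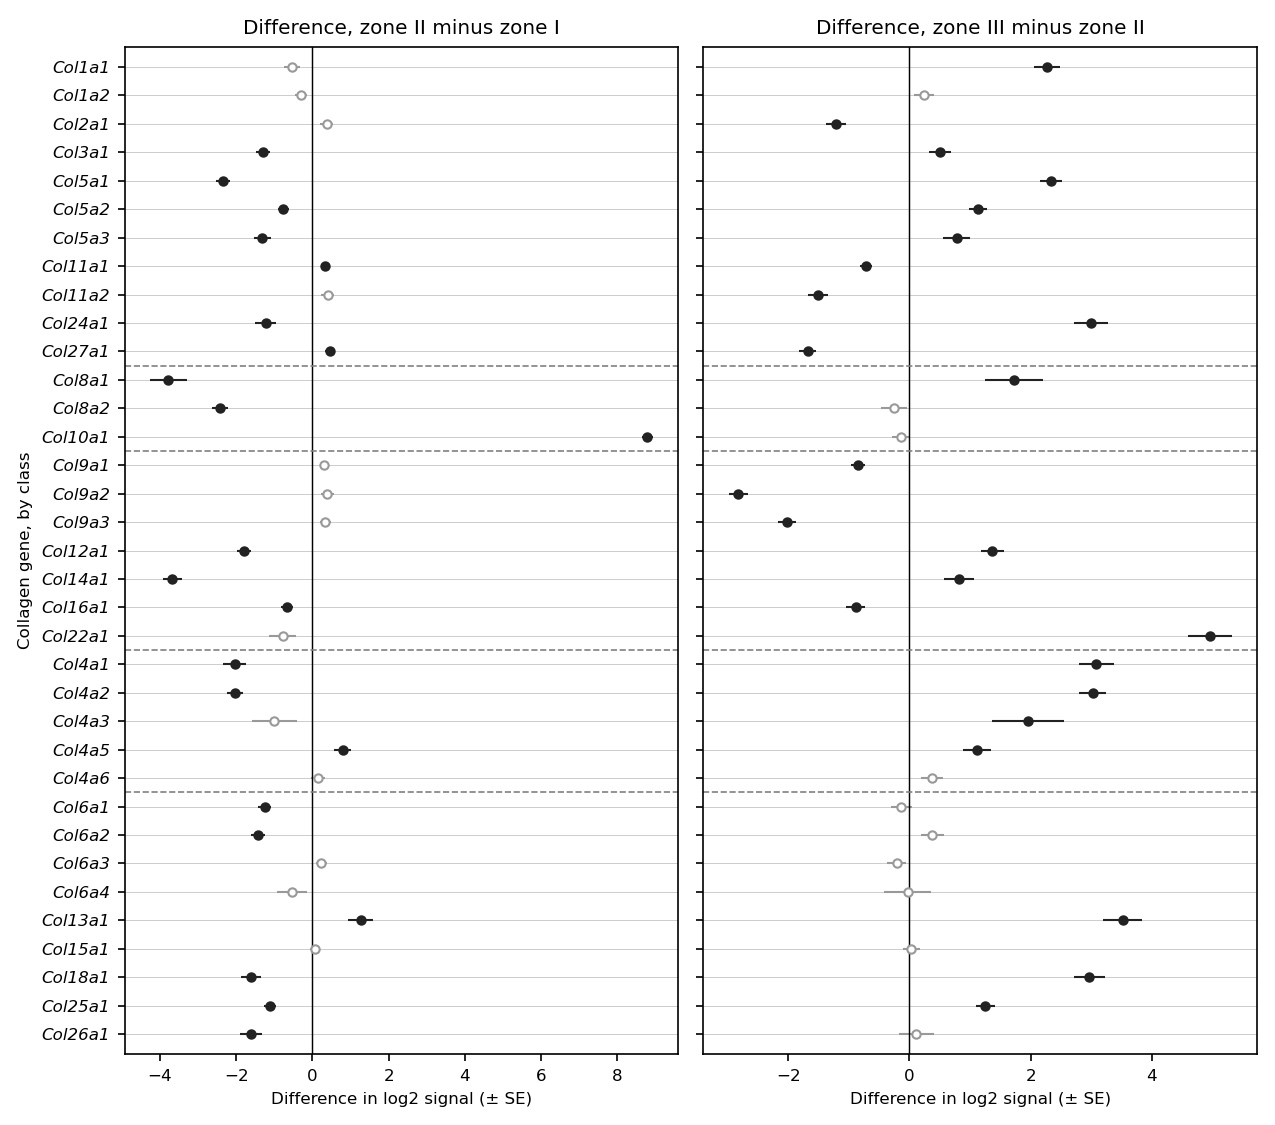
Difference in log2 signal (± SE of the fit on 12 arrays) of the 35 collagen genes, zone II minus zone I on the left and zone III minus zone II on the right. Filled points passed an adjusted p under 0.05, open points did not, and dashed lines part the fibrillar, network, FACIT, basement membrane and other classes from top to bottom. Col10a1 lies at 8.79 on the left, and Col9a2 at -2.82 and Col22a1 at 4.96 mark both ends on the right.

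Among the 11 fibrillar genes, the cartilage chains fell in zone III and the chains of type I, III and V fibrils and Col24a1 were mostly higher there than in zone II. Relative to zone II, 6 rose in zone III (Col1a1, Col3a1, Col5a1, Col5a2, Col5a3 and Col24a1), 4 fell (Col2a1, Col11a1, Col11a2 and Col27a1), and Col1a2 did not pass. Relative to zone I, zone II had 2 higher (Col11a1 and Col27a1) and 5 lower (Col3a1, the type V genes and Col24a1).

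Col2a1 encodes the chain of type II collagen, the main fibril of cartilage. On arrays A to D its signal was 4057, 3640.2, 4386 and 2721 in zone I, 4919, 5195, 4336 and 4472 in zone II and 2499, 1740.0, 2211 and 1803 in zone III. All zone III arrays lay below all arrays of both other zones, which overlapped each other. It fell 2.31-fold from zone II to zone III (log2 difference -1.21 ± 0.17, adjusted p = 6.4e-05), and the zone II minus zone I difference was 0.37 ± 0.17, adjusted p = 0.0965.

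Col11a1 encodes a chain of the minor fibril collagen type XI. It read 4120.1, 3842, 4615 and 3734 in zone I, 5141, 5227, 5338 and 4880.5 in zone II and 3301, 2929, 3204 and 3046 in zone III. Its zone II arrays lay above every other array, and it was higher in zone II than in zone I (log2 difference 0.34 ± 0.10, adjusted p = 0.0188) and lower in zone III than in zone II (-0.72 ± 0.10, adjusted p = 7.6e-05). The rise into zone II was 0.03 (adjusted p = 0.82) under quantile normalization and 0.09 (adjusted p = 0.48) with arrays centred on ribosomal protein genes. Col11a2, for the second type XI chain, read 1008, 1526, 994 and 837 in zone I, 1512, 1363, 1277 and 1472 in zone II and 589, 472, 464 and 463 in zone III. The fall to zone III was larger on the log2 scale for Col11a2 (-1.50 ± 0.17, adjusted p = 1.2e-05), and its zones I and II overlapped. Without zone I array B, at 1525.7 the highest of its zone, the zone II minus zone I difference of Col11a2 was 0.57 (adjusted p = 0.00556).

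Col27a1, a fibrillar chain of developing cartilage, gave 1326, 1754, 1788 and 1539 in zone I, 1902, 2059, 2382 and 2455 in zone II and 717, 575, 773 and 687 in zone III. As for Col11a1, its zone II arrays were the highest of all. The log2 difference was 0.46 ± 0.14, adjusted p = 0.021 for zone II minus zone I and -1.68 ± 0.14, adjusted p = 1.1e-06 for zone III minus zone II. The first of these did not pass without zone I array A (adjusted p = 0.063) or zone II array C or D (0.0552 and 0.0563), nor under quantile normalization (0.22, adjusted p = 0.29) or ribosomal centring (0.21, adjusted p = 0.29). The chondrocyte marker sums given above fell between the same zones, and their part in these falls was not tested.

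Col1a1 encodes the alpha 1 chain of type I collagen, the main fibril of bone and fibrous tissue. Its arrays gave 1478, 1035, 1108 and 999.9 in zone I, 1341, 671, 678 and 621 in zone II and 3925, 3634, 3842 and 3767 in zone III. Every zone III array was above every array of zones I and II, and array A of zone II was far above the other 3 of its zone. Zone III exceeded zone II 4.83-fold (log2 difference 2.27 ± 0.22, adjusted p = 3.6e-06). The zone II minus zone I difference was -0.54 ± 0.22, adjusted p = 0.072 with all arrays, and -0.80, adjusted p = 0.00102, past the threshold, without array A. It also passed with all arrays when the array letter was a block (adjusted p = 0.029), with quantile normalization (-0.60, adjusted p = 0.0365) and with arrays centred on ribosomal protein genes (-0.79, adjusted p = 0.00909).

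Col1a2 encodes the partner chain of the same trimer. It read 4394, 3681, 4856 and 3414 in zone I, 4191, 3288, 2942 and 2942 in zone II and 4464, 3233, 4149 and 3852 in zone III, and the 3 zones overlapped. The log2 difference of zone III minus zone II was 0.24 ± 0.16, adjusted p = 0.24. This rested on the scaling and on the brightest of 3 probe sets. With the same probe set it was 0.69 (adjusted p = 2.5e-04) under quantile normalization and 0.62 (adjusted p = 0.00202) with ribosomal centring. A second Col1a2 probe set had zone means of 2412, 1496 and 3864 and differed by 1.43 between zones III and II (adjusted p = 6.2e-05), and the third had zone means of 102.0, 57.1 and 375 and differed by 2.73 (adjusted p = 5.5e-05).

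Col24a1, a fibrillar chain known from developing bone, read 127, 156, 185 and 231 in zone I, 114, 40.7, 65.3 and 92.3 in zone II and 553, 549, 596 and 626 in zone III. All zone III arrays were highest and all zone II arrays were lowest. It rose 7.97-fold from zone II to zone III (log2 difference 3.0 ± 0.28, adjusted p = 2.4e-06) and was also above zone I (1.76 ± 0.28, adjusted p = 2.6e-04). For the osteoblast list, 6 of 6 markers had a higher mean in zone III than in zone II, Ibsp only at 3380 against 3362. The list summed to 171 to 308 in zone I, 3458 to 5097 in zone II and 8224 to 9207 in zone III. Thus 6 of 6 were also higher in zone II than in zone I, a step at which Col24a1 fell (log2 difference -1.23, adjusted p = 0.00395). The part of the osteoblast list in the levels of Col1a1 and Col24a1 was not tested.

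Col5a1, a chain of type V collagen that lies within type I fibrils, gave 1639.8, 1359.5, 1343 and 1089.8 in zone I, 370.2, 209, 228 and 274 in zone II and 1488, 1216, 1383 and 1247 in zone III. Zones I and III overlapped and zone II lay below both. The log2 difference was -2.35 ± 0.18, adjusted p = 1.3e-06 for zone II minus zone I, 2.33 ± 0.18, adjusted p = 5.8e-07 for zone III minus zone II and -0.02 ± 0.18, adjusted p = 0.95 for zone III minus zone I. Col5a3, another type V chain, had lower zone II values in the same way, with 184, 153, 274 and 135 in zone I, 84.2, 67.1, 59.5 and 81.1 in zone II and 95.5, 159, 114 and 137 in zone III. Its log2 difference was -1.32 ± 0.22, adjusted p = 6.5e-04 for zone II minus zone I and 0.78, adjusted p = 0.0117 for zone III minus zone II, a call lost with quantile normalization (adjusted p = 0.071) or median centring (adjusted p = 0.0548). For zone III minus zone I it was -0.54, adjusted p = 0.0763, and -0.67, adjusted p = 0.0394, without zone I array D.

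Col5a2, the third type V chain gene, had zone means of 2563 ± 229, 1528 ± 316 and 3302 ± 256 (SD, n = 4). It fell by 0.76 into zone II on the log2 scale (adjusted p = 0.00136) and rose by 1.13, adjusted p = 3.7e-05, into zone III. For zone III minus zone I it was 0.37, adjusted p = 0.062, and the same difference passed without zone II array A (adjusted p = 0.0292) or B (adjusted p = 0.0371), and with the array letter as a block (adjusted p = 0.0222) or quantile normalization (0.52, adjusted p = 0.00338). Col3a1, the type III chain of pliable connective tissue, had means of 4458 ± 549, 1854 ± 532 and 2565 ± 318 (SD, n = 4). Its zone I level was the highest of the 3 zones, with log2 differences of -1.30, adjusted p = 1.4e-04, for zone II minus zone I and 0.50, adjusted p = 0.0343, for zone III minus zone II. The latter call was lost, at an adjusted p from 0.0611 to 0.10, without zone II array B, C or D or without zone III array A or C, and with median centring (0.26, adjusted p = 0.27). Without zone II array A this zone III minus zone II difference of Col3a1 was 0.68 (adjusted p = 0.00202). Of the 9 perichondrium, tendon and fibrous tissue markers, 1 had a higher mean in zone II than in zone I and 6 a higher mean in zone III than in zone II, with sums of 9681 to 13412 in zone I, 4308 to 6211 in zone II and 6059 to 6905 in zone III. Their part in the type III and type V differences was not tested.

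**Figure D2:**
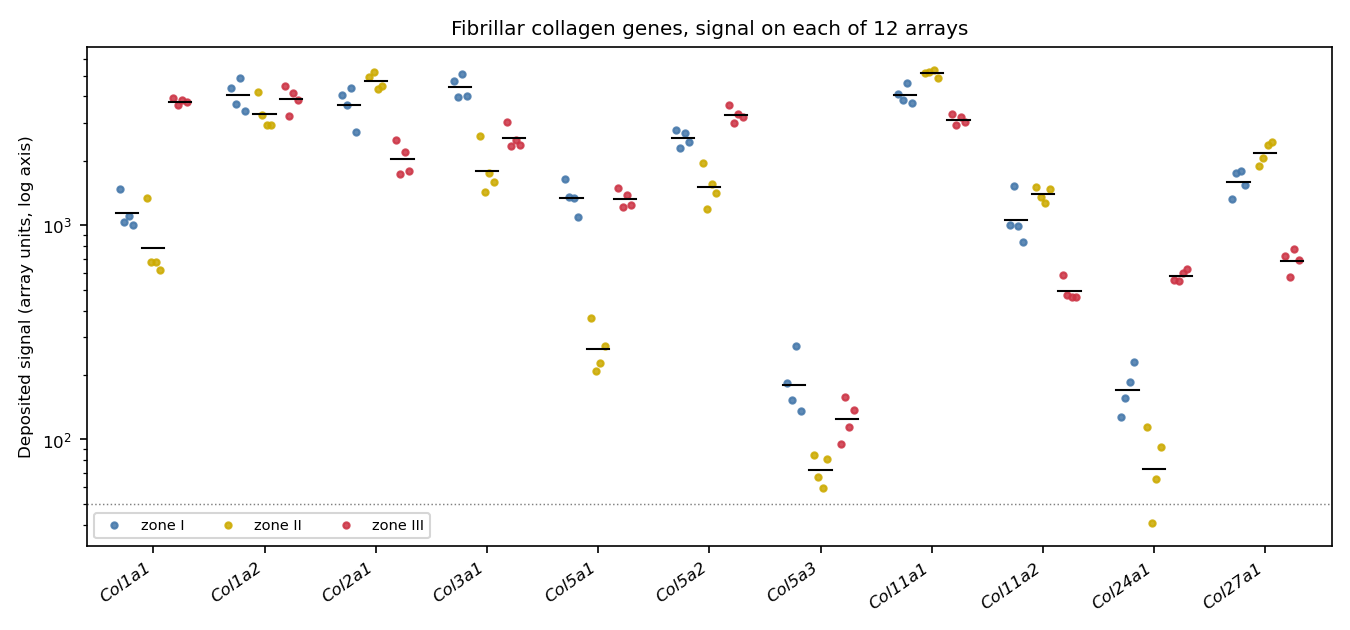
Deposited signal (array units, log axis) of the 11 fibrillar collagen genes, 1 point per array, 4 arrays per zone, with a bar at the geometric mean and a dotted line at the filter of 50. Zone III points are the highest for Col1a1 and Col24a1 and the lowest for Col2a1, Col11a1, Col11a2 and Col27a1, and zone II points are the lowest for the 3 type V genes.

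The network-forming genes split at the step into zone II, where Col10a1 rose and the type VIII pair fell. Col10a1 encodes the type X chain, the collagen of hypertrophic cartilage. It read 5.68, 5.95, 4.78 and 6.85 in zone I, 2565, 2275, 2569 and 2831 in zone II and 2596, 1814, 2519 and 2475 in zone III. No zone I array reached 10 units and no array of the other zones was under 1814, so the groups were fully apart. The zone II minus zone I log2 difference was 8.79 ± 0.15, adjusted p = 4.2e-12, and it was 6.88 (adjusted p = 3.3e-13) with 16 units added to every signal, so its size depends on zone I values far under the filter. Zones II and III overlapped (zone III minus zone II -0.13 ± 0.15, adjusted p = 0.48).

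Col8a1 and Col8a2 encode the chains of type VIII collagen, a hexagonal network found near vessels and in the eye. Col8a1 gave 189.7, 137, 165 and 189 in zone I, 35.2, 7.86, 16.2 and 4.98 in zone II and 53.9, 24.0, 41.5 and 49.3 in zone III. Zone I was above both other zones on every array, and the zone II arrays, all under 50, overlapped zone III. It fell into zone II (log2 difference -3.79 ± 0.48, adjusted p = 7.5e-05) and was higher again in zone III (1.72 ± 0.48, adjusted p = 0.0101), which became -2.62 (adjusted p = 2.1e-06) and 0.92 (adjusted p = 0.00661) with 16 units added. Col8a2 read 589, 344, 563 and 405 in zone I, 87.5, 88.0, 79.9 and 92.6 in zone II and 86.5, 48.4, 78.2 and 85.7 in zone III. It fell 5.34-fold into zone II (log2 difference -2.42 ± 0.21, adjusted p = 3.7e-06), and zones II and III overlapped (-0.26 ± 0.21, adjusted p = 0.34).

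The 7 FACIT genes all differed between zones II and III, with 3 higher and 4 lower in zone III. None rose between zones I and II, and 3 fell. The genes of type IX, which coats type II fibrils, shared 1 order of zones.

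Col9a1 read 4988, 4138, 5402 and 4414 in zone I, 6109.7, 6169, 5818 and 5306 in zone II and 3442, 2919, 3445 and 3207 in zone III. It fell into zone III by a log2 difference of -0.85 ± 0.12, adjusted p = 6.1e-05. Col9a2 read 1964, 2840.4, 1779 and 1697 in zone I, 3058, 2661, 2270.2 and 2719 in zone II and 424, 342, 369 and 375 in zone III. Its fall, 7.07-fold, was the largest of the 3 genes by these probe sets (-2.82 ± 0.16, adjusted p = 6.5e-08). Col9a3 gave 4293, 3815, 4928 and 3694 in zone I, 5389, 5473, 5311 and 4877 in zone II and 1394, 996, 1630.1 and 1226 in zone III, a fall of 4.07-fold (-2.03 ± 0.15, adjusted p = 4.5e-07). For all 3 genes every zone III array was below every other array, and zones I and II overlapped, with zone II minus zone I differences of 0.31 (adjusted p = 0.0511), 0.39 (adjusted p = 0.0767) and 0.34 (adjusted p = 0.0985). Median centring of the arrays took all 3 past the threshold, at 0.49 (adjusted p = 0.00768), 0.58 (adjusted p = 0.0152) and 0.52 (adjusted p = 0.0199), as did a mean-variance trend with robust estimation (adjusted p = 0.0122, 0.0419 and 0.0478), and Col9a1 also passed with the array letter as a block (adjusted p = 0.0485). Leaving out 1 array took Col9a1 and Col9a2 past it, Col9a1 at 0.38 without zone I array C (adjusted p = 0.0307) and 0.36 without zone II array D (adjusted p = 0.0428), and Col9a2 at 0.56 without zone I array B (adjusted p = 0.00638). The dimmer Col9a1 probe set had a larger difference between zones III and II, -2.36 on the log2 scale (adjusted p = 1.8e-08), and the order among the 3 chains differs with the probe set.

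Col22a1, a FACIT chain known from tissue junctions such as that of muscle and tendon, had the largest rise of any member between zones II and III. It read 83.8, 77.3, 46.0 and 65.3 in zone I, 84.6, 36.2, 41.2 and 17.7 in zone II and 1251, 1198, 1164 and 1203 in zone III. The zone III arrays stood far above all others, and zones I and II lay around the filter and overlapped. The rise was 31.1-fold (log2 difference 4.96 ± 0.36, adjusted p = 3.6e-07; 4.43 with 16 units added). For zone II minus zone I it was -0.78 ± 0.36, adjusted p = 0.11 with all arrays and -1.16, adjusted p = 0.00674, without array A. The 6 skeletal muscle markers summed to 247 to 973 in zone I, 168.9 to 404 in zone II and 164.0 to 346 in zone III, and their part in the Col22a1 levels was not tested.

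Col14a1 and Col12a1, FACIT chains of dense connective tissue, were both lower in zone II than in zone I. Col14a1 gave 1636, 1374, 1699 and 1497 in zone I, 188, 109, 87.6 and 118 in zone II and 275, 139, 199 and 267 in zone III. It fell 12.8-fold (-3.68 ± 0.25, adjusted p = 4.7e-07) and was higher in zone III than in zone II (0.81 ± 0.25, adjusted p = 0.0158), although array B of zone III lay within the zone II range and the call was lost without zone III array A (adjusted p = 0.0506) or D (adjusted p = 0.0502), with quantile normalization (adjusted p = 0.0805) or with median centring (adjusted p = 0.0781). Without zone II array A this difference of Col14a1 was 1.03 (adjusted p = 0.00246). The dimmer Col14a1 probe set differed by 0.28 between zones III and II (adjusted p = 0.21). Col12a1 read 548, 432, 523 and 458 in zone I, 135, 93.7, 158 and 195 in zone II and 336, 410.2, 353 and 356 in zone III. Its zone II arrays lay below all others, with differences of -1.79 ± 0.19, adjusted p = 1.8e-05 and, for zone III minus zone II, 1.37 ± 0.19, adjusted p = 7.5e-05. With the dimmer Col12a1 probe set these were -0.65 (adjusted p = 0.0366) and 0.37 (adjusted p = 0.19). The zone III minus zone I difference of Col12a1 was -0.43, adjusted p = 0.0947, and its adjusted p was 0.0269 without zone II array B.

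Col16a1, a FACIT chain of cartilage and skin, fell at both steps. It read 1219.9, 1705, 1503 and 1370.4 in zone I, 1084, 743, 905 and 927 in zone II and 565, 434, 535 and 439 in zone III, with no overlap between any pair of zones. The differences were -0.67 ± 0.15, adjusted p = 0.0042 for zone II minus zone I and -0.89 ± 0.15, adjusted p = 3.6e-04 for zone III minus zone II.

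**Figure D3:**
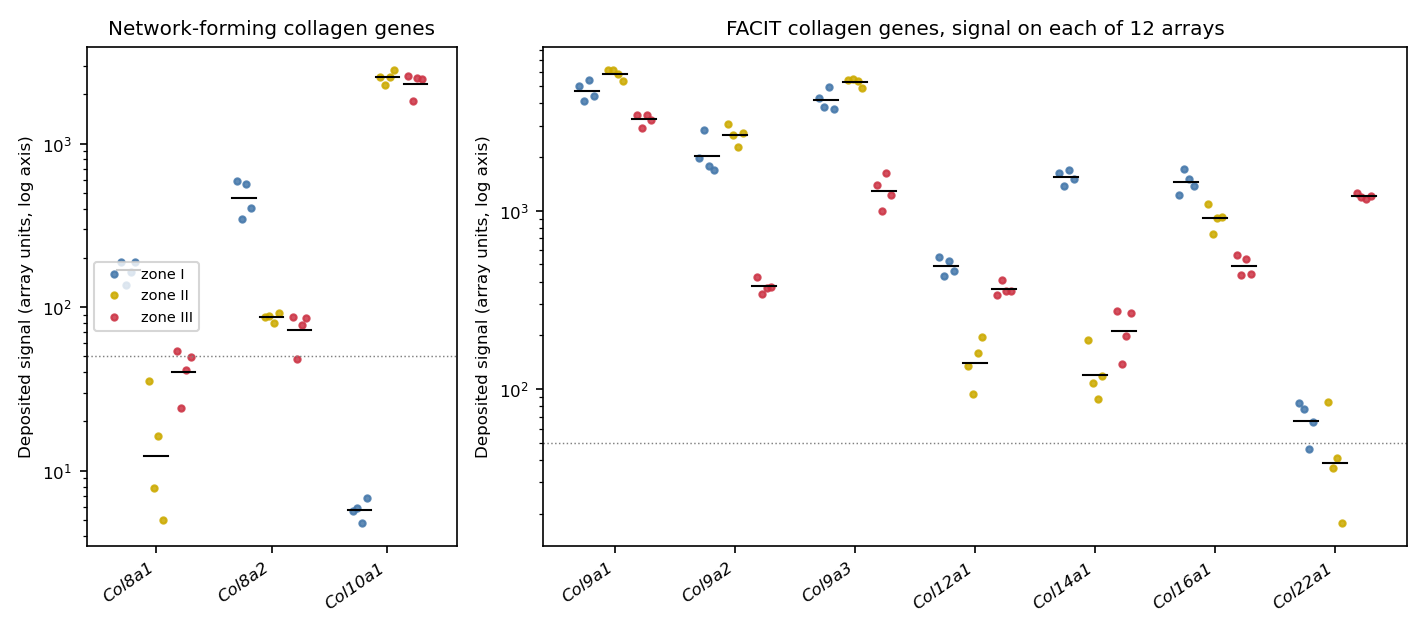
Deposited signal (array units, log axis) of the 3 network-forming genes on the left and the 7 FACIT genes on the right, 1 point per array, with a bar at the geometric mean of the 4 arrays of a zone and a dotted line at the filter of 50. Col10a1 lies under 10 units in zone I and at 1814 or more in zones II and III, Col22a1 lies at 1164 or more in zone III alone, and the type IX genes are lowest in zone III.

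Of the 5 basement membrane genes, all of them type IV chains, 4 were higher in zone III than in zone II and none was lower. Col4a1 read 1489, 965, 1272 and 1117 in zone I, 613, 256, 202 and 221 in zone II and 2801, 2395, 2451 and 2202 in zone III. The zone II arrays were lowest and the zone III arrays highest, and array A of zone II was above the other 3. It fell 4.13-fold into zone II (-2.05 ± 0.29, adjusted p = 1.7e-04) and rose 8.48-fold into zone III (3.08 ± 0.29, adjusted p = 2.9e-06). Col4a2 gave 448, 432, 339.6 and 320.3 in zone I, 146, 88.0, 67.4 and 86.3 in zone II and 888, 805, 696 and 651 in zone III. Its differences were -2.03 ± 0.21, adjusted p = 1.7e-05 and, for zone III minus zone II, 3.02 ± 0.21, adjusted p = 3.1e-07, close to those of Col4a1 at both steps. Without array A of zone II they were -2.41 (adjusted p = 8.4e-07) and 3.44 (adjusted p = 4.4e-08) for Col4a1 and -2.25 (adjusted p = 2.0e-06) and 3.24 (adjusted p = 7.5e-08) for Col4a2. Both genes were also higher in zone III than in zone I, Col4a1 by 1.04, adjusted p = 0.0128, and Col4a2 by 0.99, adjusted p = 0.00288. The dimmer Col4a1 probe set differed by 0.43 between zones III and I and did not pass (adjusted p = 0.29).

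The endothelial list moved the same way, with 8 of 8 markers lower in zone II than in zone I and 8 of 8 higher in zone III than in zone II. Its sums were 666 to 1237 in zone I, 247 to 521 in zone II and 2618 to 2939 in zone III. This course was not particular to endothelium. Of 4 macrophage markers, 0 had a higher mean in zone II than in zone I and 4 a higher mean in zone III than in zone II. Macrophage sums were 720 to 1277 in zone I, 465 to 734 in zone II and 3904 to 4726 in zone III. Of 2 erythroid markers, 0 were higher in zone II than in zone I and 2 higher in zone III than in zone II. Mural cell markers summed to 1137 to 2052.5 in zone I, 453 to 793 in zone II and 2619 to 2987 in zone III. Of these 5 markers, 4 had a higher mean in zone III than in zone II, but only 2 a higher mean in zone III than in zone I. The part of these cells in the type IV differences was not tested.

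Col4a5 and Col4a6 encode chains of a second type IV trimer and start on opposite strands of chromosome X, 1343 bases apart. Col4a5 read 218, 209, 252 and 279 in zone I, 338, 271, 518 and 602 in zone II and 821, 735, 937 and 1117 in zone III. It rose at both steps, by 0.79 ± 0.23, adjusted p = 0.0186, with overlapping arrays and no call without zone II array C (adjusted p = 0.0542) or D (adjusted p = 0.0511) or with ribosomal centring (adjusted p = 0.0912), and by 1.12 ± 0.23, adjusted p = 0.00163, without overlap. Col4a6 lay near the filter, with means of 49.5 ± 0.68, 55.7 ± 9.86 and 73.1 ± 19.8 (SD, n = 4), and passed only for zone III minus zone I (0.52, adjusted p = 0.035), a call lost without any 1 of the zone I arrays or zone III array C or D (adjusted p from 0.0617 to 0.10). Its other probe set had zone means of 14.8, 30.0 and 114 and differed by 3.03 between zones III and I (adjusted p = 3.1e-05).

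Col4a3, a chain of specialised basement membranes such as that of the kidney glomerulus, gave 48.4, 47.3, 58.5 and 60.0 in zone I, 15.3, 81.9, 7.18 and 56.0 in zone II and 112, 90.0, 83.0 and 134 in zone III. The zone II arrays were scattered from 7.18 to 81.9, and all lay below all zone III arrays. The rise into zone III was 1.95 ± 0.59, adjusted p = 0.0154. The zone II minus zone I difference was -1.0, adjusted p = 0.21, and -1.54, adjusted p = 0.0379, without zone II array B.

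Of the 9 other genes, 1 was higher and 5 were lower in zone II than in zone I, and 3 were higher in zone III than in zone II and none lower. Col13a1, a membrane-spanning collagen of cell adhesion sites, rose at both steps. It gave 26.4, 34.5, 10.9 and 33.0 in zone I, 90.7, 46.3, 52.2 and 50.8 in zone II and 694, 714, 663 and 583 in zone III, with no overlap between zones. The rise was 11.5-fold from zone II to zone III (3.52 ± 0.33, adjusted p = 2.6e-06), and 1.27 ± 0.33, adjusted p = 0.00875, from zone I to zone II, where the zone I values were all under 50.

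Col18a1, a basement membrane associated chain and the source of endostatin, read 363, 267, 216 and 279 in zone I, 168, 64.6, 80.5 and 77.4 in zone II and 800.2, 743, 659 and 647 in zone III. It fell 3.05-fold into zone II (-1.61 ± 0.26, adjusted p = 4.2e-04) and rose 7.82-fold into zone III (2.97 ± 0.26, adjusted p = 1.5e-06). The endothelial and macrophage sums given above also fell and rose at these steps, and their part in the Col18a1 differences was not tested. Col15a1, the closest relative of Col18a1, had means of 302 ± 52.6, 313 ± 28.0 and 320.3 ± 31.1 (SD, n = 4), and no comparison passed. The zone III minus zone II difference of Col15a1 was 0.03 ± 0.14, adjusted p = 0.86.

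Col6a1 and Col6a2, chains of the beaded microfibrils of type VI collagen, were lower in zone II than in zone I. Col6a2 gave 2726, 2110.1, 2469 and 1722 in zone I, 989.8, 763, 686 and 868 in zone II and 1413, 926, 1049.7 and 934 in zone III. Every zone I array was above every array of zones II and III, and the latter overlapped. The zone III minus zone II difference of Col6a2 was 0.38, adjusted p = 0.11, and it passed with quantile normalization (0.50, adjusted p = 0.0324), ribosomal centring (0.76, adjusted p = 0.00209) or the array letter as a block (adjusted p = 0.0454). The fall was -1.44 ± 0.18, adjusted p = 7.2e-05 for Col6a2 and -1.26 ± 0.17, adjusted p = 1.1e-04 for Col6a1, whose means were 2361 ± 308, 998 ± 218 and 902 ± 126 (SD, n = 4). Col6a3, the third chain of the same trimer, had means of 1393 ± 158, 1658 ± 351 and 1412 ± 117 (SD, n = 4) and passed in no comparison, but with median centring of the arrays it differed by 0.42 between zones II and I (adjusted p = 0.0355) and by -0.45 between zones III and II (adjusted p = 0.0186). Col6a4, with means of 66.9 ± 39.1, 40.4 ± 9.93 and 39.3 ± 9.29 (SD, n = 4), also passed in none, although without zone I array B, the lowest of its zone, its differences from zone I were -0.94 (adjusted p = 0.0357) in zone II and -0.98 (adjusted p = 0.0284) in zone III.

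Col26a1 read 309.9, 147, 145 and 164 in zone I, 99.6, 61.0, 44.5 and 44.7 in zone II and 76.1, 56.6, 54.5 and 70.8 in zone III. It fell into zone II (-1.62 ± 0.29, adjusted p = 9.2e-04), and zones II and III overlapped. Col25a1, a transmembrane collagen known from neurons and muscle, had means of 542 ± 84.0, 252 ± 49.1 and 592 ± 40.5 (SD, n = 4). The log2 difference was -1.11, adjusted p = 2.0e-04, for zone II minus zone I and 1.25, adjusted p = 4.0e-05, for zone III minus zone II.

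**Figure D4:**
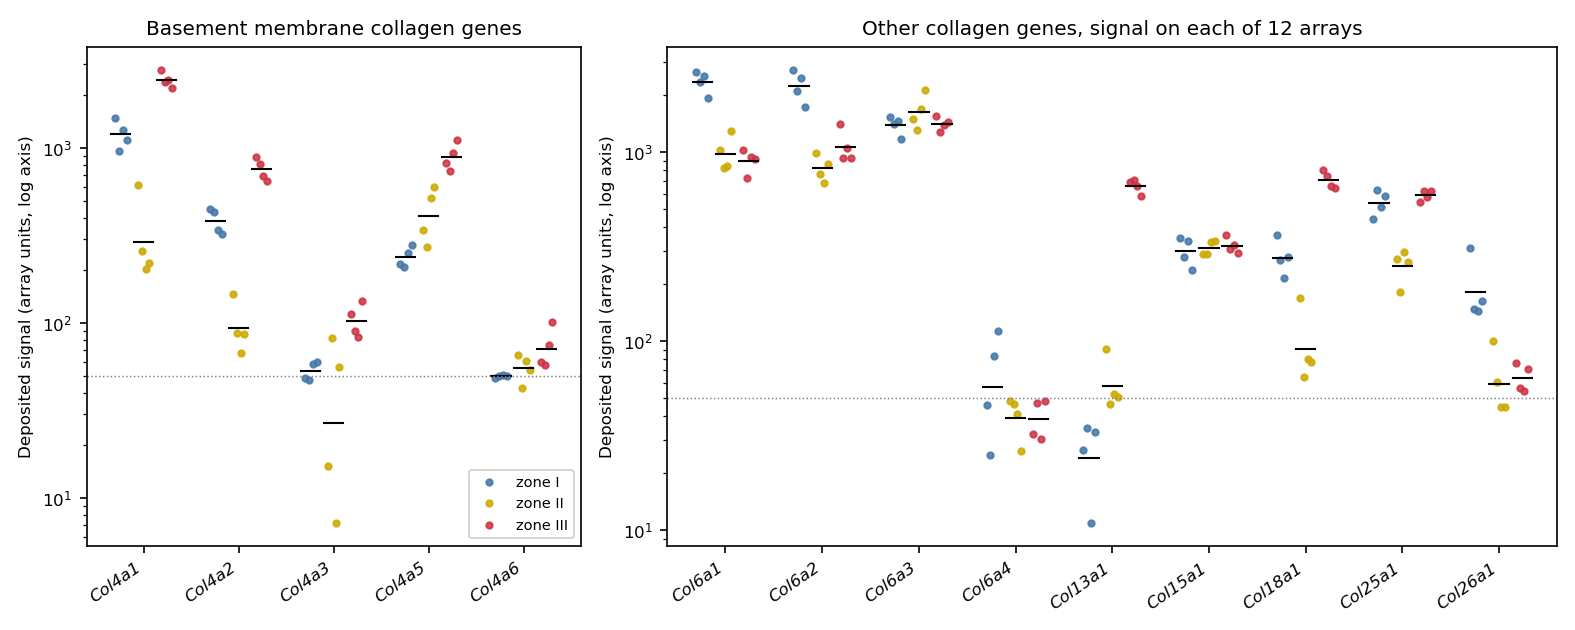
Deposited signal (array units, log axis) of the 5 basement membrane genes on the left and the 9 other genes on the right, 1 point per array, with a bar at the geometric mean of the 4 arrays of a zone and a dotted line at the filter of 50. Col4a1, Col4a2 and Col18a1 are lowest in zone II and highest in zone III, and Col15a1 and Col6a3 overlap in all zones.

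A zone II level apart from both neighbouring zones recurred in several classes. All zone II arrays lay below all arrays of zones I and III for 9 members (Col4a1, Col4a2, Col5a1, Col5a2, Col5a3, Col12a1, Col18a1, Col24a1 and Col25a1), beside 13.4% of all genes. They lay above all others for 2 members, Col11a1 and Col27a1, beside 9.79% of all genes. Without array A of zone II, 15 members lay below, beside 16.4% of all genes, and 2 above, beside 11.0%.

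Chains that assemble into 1 trimer or fibril did not all move in step. The log2 ratio of 2 chains was taken within each array for 15 pairs, and its spread between zones was tested by an exact permutation test over the 34650 assignments of 12 arrays to 3 zones, which counts spread in any direction and whose smallest p here was 1.7e-04. At an adjusted p under 0.05 over the 15 pairs, 13 ratios differed between zones, 11 when a gene's probe sets were averaged by their median and 9 with its dimmest. Both of the latter counts include Col4a1 to Col4a2, which is not among the 13. The share of other gene pairs whose ratio differs is not given here, so the counts cannot be read as particular to these chains. A ratio of 2 probe sets gives no ratio of transcripts, so its change between zones alone is described.

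The ratio of Col4a1 to Col4a2, the chains of the head to head pair shown above, differed least. It was 1.65 ± 0.33, 1.64 ± 0.30 and 1.70 ± 0.11 (SD, n = 4) over zones I, II and III, with an adjusted p = 0.94 by the exact permutation test. With the median of the probe sets of each gene, the Col4a1 to Col4a2 ratio changed by 0.52 into zone II and by -0.77 into zone III (adjusted p = 0.0293, exact permutation test), so this steadiness rested on the brighter Col4a1 probe set. For Col2a1 to Col11a2 the ratio changed by 0.30 from zone II to zone III (adjusted p = 0.27, exact permutation test; 0.00584 with quantile normalization). The Col4a5 to Col4a6 ratio rose by 1.38 from zone I to zone III (adjusted p = 0.0026, exact permutation test), but by 0.04 with each gene's probe sets averaged by their median (adjusted p = 0.82), and it changed by -1.29 with the dimmest (adjusted p = 0.0436).

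Among cartilage chains, Col9a2 lost more than Col9a1 and Col9a3 by these probe sets. The Col9a1 to Col9a2 ratio rose by 1.97 into zone III (adjusted p = 0.00857, exact permutation test), and the Col9a2 to Col9a3 ratio changed by -0.80 (adjusted p = 0.0135, exact permutation test). Both held with the median of the probe sets, at 1.22 (adjusted p = 0.00705) and -1.16 (adjusted p = 0.00808), while the Col9a1 to Col9a3 ratio went from 1.18 (adjusted p = 0.00705, exact permutation test) to 0.06 (adjusted p = 0.90). With the dimmest probe set of each gene, the Col9a1 to Col9a2 change was 0.46 and did not pass (adjusted p = 0.068), the Col9a2 to Col9a3 change was -1.29 (adjusted p = 0.0265), and the Col9a1 to Col9a3 change turned to -0.83 (adjusted p = 0.0436). The Col11a1 to Col11a2 ratio rose by 0.78 into zone III (adjusted p = 0.00857, exact permutation test), 0.63 on median probe set values (adjusted p = 0.0192) and 0.49 with the dimmest (adjusted p = 0.068). The Col2a1 to Col11a1 ratio changed by -0.49 (adjusted p = 0.0143, exact permutation test), and its adjusted p was 0.0968 with the median of the probe sets.

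Ratios also moved among the chains of type I, V and XI fibrils. The Col5a2 to Col11a1 ratio, between minor chains of bone and of cartilage fibrils, changed by -1.10 into zone II and by 1.85 into zone III (adjusted p = 0.0013, exact permutation test), with no overlap between zones. For Col5a1 to Col5a2 the changes were -1.59 and 1.20 (adjusted p = 0.0013, exact permutation test). They were -0.62 and 0.42 by median probe set values (adjusted p = 0.00705), and -0.52 and -0.18 with the dimmest, where the second turned and the ratio did not pass (adjusted p = 0.068). Col1a1 to Col1a2 rose by 2.03 into zone III (adjusted p = 0.00519, exact permutation test), by 1.14 with the median probe set values (adjusted p = 0.00433) and by 0.08 with the dimmest probe set of each gene (adjusted p = 0.77).

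Type VI and type VIII chains also parted. Relative to Col6a3, Col6a1 changed by -1.49 (adjusted p = 0.00705) and Col6a2 by -1.68 (adjusted p = 0.00173) into zone II, both by the exact permutation test. The Col6a1 to Col6a2 ratio changed less, by -0.51 into zone III (adjusted p = 0.00812, exact permutation test). The Col8a1 to Col8a2 ratio was scattered in zone II, at -2.83 ± 1.28 (SD, n = 4), and rose by 1.98 into zone III (adjusted p = 0.0144, exact permutation test). Past zone I the Col8a1 means were 16.1 and 42.2, under the filter, so the size of these changes carries little information. The rise into zone III was 1.65 by median probe set values (adjusted p = 0.00705) and 1.33 with the dimmest (adjusted p = 0.0123). The change into zone II went from -1.37 to -0.56 by median values and turned to 0.25 with the dimmest.

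**Figure D5:**
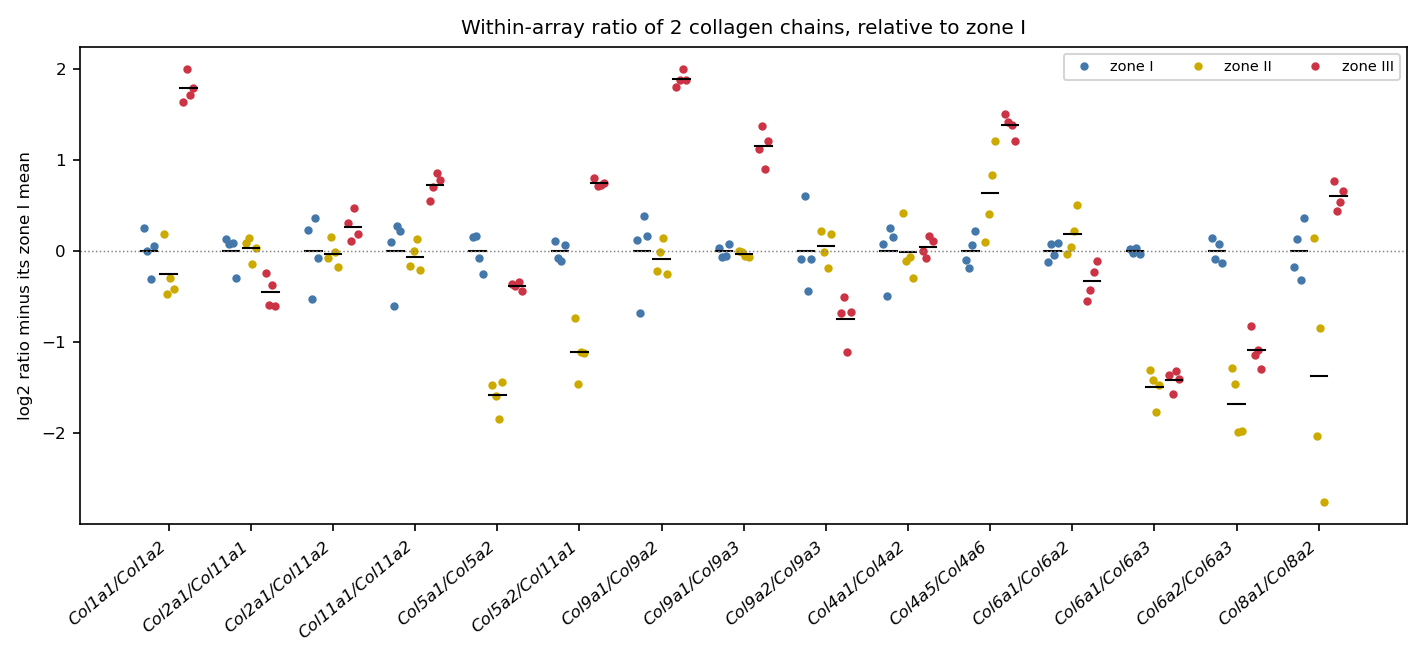
Log2 ratio of 2 collagen chains within an array, minus its zone I mean, for 15 pairs, 1 point per array, with a bar at the mean of 4 arrays. Col4a1/Col4a2 stays near 0 in all zones, Col9a1/Col9a2 and Col1a1/Col1a2 rise in zone III, and Col5a1/Col5a2 and Col5a2/Col11a1 dip in zone II.

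Genes that process or bind collagen were read as well, 35 of which passed the filter. Prolyl and lysyl hydroxylases and galactosyltransferases modify the chains in the endoplasmic reticulum, chaperones and coat proteins fold and export them, proteases trim the propeptides, and lysyl oxidases cross-link the fibrils. Between zones I and II, 13 of the 35 were higher and 6 lower. Between zones II and III, 6 were higher and 22 lower, and between zones I and III, 7 were higher and 16 lower. The shares over all genes are those given above, 16% and 25.4%, 31.0% and 22.7%, and 21.7% each way.

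All 13 hydroxylation and glycosylation genes were lower in zone III than in zone II on the deposited scale, with a median log2 difference of -1.07. Several of these calls depended on the scaling. Crtap, a subunit of the prolyl 3-hydroxylase complex, turned to 0.09 (adjusted p = 0.51) under quantile normalization. It was 0.11 (adjusted p = 0.49) when arrays were centred on ribosomal protein genes, and did not pass with the array letter as a block (adjusted p = 0.0731). P4hb lost the call with ribosomal centring and with quantile normalization, where it was -0.05. Plod3, P3h1, P3h3 and Colgalt1 lost it with ribosomal centring, at -0.36, -0.68, -0.17 and -0.29. P4ha1, P4ha2, P4ha3, Plod1, Plod2, P3h2 and Colgalt2 kept the call in every alternative. Colgalt2, which adds galactose to hydroxylysine, had means of 657 ± 161, 1055 ± 120.4 and 93.4 ± 18.8 (SD, n = 4) and a zone III minus zone II difference of -3.51 ± 0.20, adjusted p = 5.9e-08. P4ha3, a prolyl 4-hydroxylase subunit, fell at both steps, with means of 284 ± 68.3, 134 ± 35.8 and 23.6 ± 7.34 (SD, n = 4) and differences of -1.09, adjusted p = 0.0048, and -2.53, adjusted p = 4.7e-06. P3h2, a prolyl 3-hydroxylase, was highest in zone II, with means of 141 ± 16.4, 703 ± 101 and 180.2 ± 4.68 (SD, n = 4), a rise of 2.32, adjusted p = 9.8e-08, and then a difference of -1.95, adjusted p = 1.6e-07. In the same class, 6 genes were higher and 2 lower in zone II than in zone I.

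Of 8 folding and export genes, 4 were higher in zone II than in zone I and 4 lower in zone III than in zone II. The propeptide group was split. Bmp1, the C-proteinase of fibrillar procollagens, had means of 279 ± 20.7, 177 ± 24.3 and 472 ± 6.02 (SD, n = 4) and rose by 1.42, adjusted p = 7.9e-07, into zone III. Pcolce2, an enhancer of that enzyme, peaked in zone II, with a zone II minus zone I difference of 1.32, adjusted p = 1.8e-05. Adamts3, the N-proteinase of cartilage procollagen, was lower in zone III than in zone I by a log2 difference of -1.56, adjusted p = 1.2e-05.

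The lysyl oxidase genes went different ways. Lox had means of 779.9 ± 157, 344 ± 131 and 2356 ± 256 (SD, n = 4), with differences of -1.23, adjusted p = 9.8e-04, for zone II minus zone I and 2.84, adjusted p = 6.5e-07, for zone III minus zone II. Loxl1 fell into zone II (log2 difference -2.44, adjusted p = 2.0e-06) and rose into zone III (1.45, adjusted p = 5.9e-05). Loxl4 rose into zone II, from a mean of 56.2 to 636 and 719.9, a difference of 3.53, adjusted p = 3.2e-07, and Loxl3 fell into zone III (-2.01, adjusted p = 2.8e-07). Among receptors, Itga1, the collagen-binding integrin alpha 1, rose into zone II (2.11, adjusted p = 5.3e-07). The fibrillar collagen receptor Ddr2 fell into zone II (-1.04, adjusted p = 8.6e-05). Itga2, with zone means of 35.5, 37.0 and 142, was higher in zone III than in zone II (1.88, adjusted p = 3.7e-04). It passed the filter through zone III alone, so the size of this difference rests on values under the filter.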

How the data were processed

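Total RNA of 12 pools (4 per zone) was hybridised to Affymetrix MOE 430 2.0 arrays. The authors deposited 1 signal intensity per probe set and array, scaled so that each array had a mean of 150.0 once 2% of the values were trimmed from either end. The submitters' notes name RMA and the study's methods a variant of it, but which summary gave these values was not given in the sources used here. Scanner settings files were read for the hybridisation run only.

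Signals were used as deposited, as intensities, and transformed to log2 without a pseudocount. Of 45037 probe sets other than controls, 22255 had a mean of 50 or more in at least 1 zone. The 3 zones were compared in 1 linear model (limma 3.58.1, R 4.3.3) with Benjamini-Hochberg adjustment over the 22255 probe sets, and the background is 1 probe set for each of 11847 genes. Differences are the later zone minus the earlier zone. Chain ratios were tested by exact permutation in Python (numpy, pandas), adjusted over 15 pairs. Both procedures were tested on simulated data.

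Every member is named. Values on each array are given for the type I, II, IX, X and XI genes and for up to 4 further members per class with the largest absolute log2 difference, and the processing genes named are up to 4 per comparison and direction with the largest absolute difference among those called. Members, classes and lists were chosen with earlier results of these data known. All 35 member symbols matched the RefSeq gene table. Labels state that the 4 arrays of a zone are independent trials, and their number limits the precision. No detection calls were used, so signals far under 50 carry little information on size.

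Alternatives were other filters, scalings, probe set choices, blocks and fold thresholds, and leaving out each array. The dimmest probe set of a gene and the zone II overlap without array A were chosen after seeing the data.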

Additional observations from a re-analysis of the deposited data

Results flagged for a closer look

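In 105 groups of 4 arrays (35 collagen genes in 3 zones), 4 held an array whose gap to the nearest of the others was over Dixon's critical value, where chance flags about 1 in 20 groups. The Col1a1 signal of zone II array A was 1341, against 621 to 678 on the other 3 arrays. Col11a2 was 589 on zone III array A, against 463 to 472. Col10a1 was 1814 on zone III array B, against 2475 to 2596. Col26a1, in zone I, was 309.9 on array A, against 145 to 164. The array A of zone II that was high for Col1a1 also had the highest osteoblast marker sum of its zone, 5097 against at most 4231, and the highest perichondrium, tendon and fibrous tissue sum, 6211 against at most 5241, whose part in the Col1a1 value was not tested.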

How the results depend on the processing

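The count of collagen genes higher in zone II than in zone I, 5 as reported, rested on small differences. It was 2 without a filter on low signals, 3 with quantile normalization, 11 with median centring (adding Col2a1, Col11a2, Col6a3 and the type IX genes), 2 with centring on 89 ribosomal protein probe sets, 10 with a mean-variance trend and robust estimation, 3 at a fold of at least 1.5, and 3 to 7 when 1 array was left out (3 without zone II array C). The other collagen counts stayed within 1.5 times, and from the 12 arrays left out in turn the range was 17 to 19 lower in zone II than in zone I, 15 to 17 higher and 8 to 8 lower in zone III than in zone II, and 9 to 11 higher and 15 to 16 lower in zone III than in zone I. Processing and receptor genes higher in zone II than in zone I numbered 8 without a filter, 7 with quantile normalization, 6 with ribosomal centring and 7 at a fold of at least 1.5, instead of 13. With ribosomal centring, 10 instead of 6 were higher and 13 instead of 22 lower in zone III than in zone II. Relative to the deposited scale, that centring moved the median of all genes by -0.25, 0.38 and 0.14 in the 3 comparisons, median centring by 0.18, -0.24 and -0.06, and quantile normalization by 0.07, -0.11 and -0.02. The shares of all genes called under the alternatives are not given here, so the changed counts have no background beside them. The Col1a2 difference between zones III and I turned from -0.05 to 0.64 with the median of its probe sets and to 1.97 with the dimmest, the Lox difference between zones II and I turned to 0.13 with the dimmest, and Crtap between zones III and II turned to 0.093 with quantile normalization and 0.11 with ribosomal centring. The cause was not tested. Of 2619 collagen values under all alternatives, 2506 kept their side of the threshold, 44 lost and 67 gained the call and 2 reversed. A change of sign was counted as reversed only where the reported or the alternative value was called. Values called in neither could change sign among the 2506. For zone III minus zone II, Col10a1 went from -0.13 to 0.25 with quantile normalization.

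Whether array letters pair the zones was left undecided. Same-letter deviations correlated from -0.13 to 0.26, with r over 0.1 in 8 of 12 same-letter pairs, and 7 of 12 arrays matched their own letter best. The matches expected by chance were not computed, so these values cannot decide it, and the main fit has no block. With the letter as replicate block, 6 collagen genes were higher and 18 lower in zone II than in zone I, 18 higher and 8 lower in zone III than in zone II, and 11 higher and 15 lower in zone III than in zone I, and 13 chain ratios differed. The shares of all genes called with the block are not given here. The block took the Col1a1, Col5a2, Col9a1 and Col6a2 differences named above past the threshold, and no collagen gene lost a call with it.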

Other observations

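Probe sets of 1 collagen gene differed in the size of their changes and, where the brightest did not pass, in some cases in sign. For zone III minus zone I, Col1a2 was -0.05 with the brightest probe set and 0.68 (adjusted p = 0.0146) and 1.97 (adjusted p = 9.5e-04) with the others, and for zone II minus zone I Col22a1 was -0.78 against 0.19 and Col9a3 0.34 against -0.04, of which none passed. For the 18 members with several probe sets past the filter, the dimmest had the larger absolute log2 difference than the brightest in 6 genes for zone II minus zone I, 9 for zone III minus zone II and 9 for zone III minus zone I. Among genes whose brightest probe set was near the top of the scale, the zone III minus zone II difference of Col9a1 was -0.85 with zone means of 4736, 5851 and 3253, and -2.36 with zone means of 2860.2, 3244 and 631. For Col3a1 the zone II minus zone I difference was -1.30 with the brighter probe set and -2.87 with the dimmer. Of the other probe sets of called members, 12 of 13, 16 of 18 and 15 of 16 were called in the same direction in the 3 comparisons, and 0 had the opposite sign. Those not called were of Col27a1 for zone II minus zone I, Col12a1 and Col14a1 for zone III minus zone II, and Col4a1 for zone III minus zone I.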
